A study of Mus musculus with 4 samples.

Results

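Vimentin (Vim), the small leucine-rich proteoglycans biglycan (Bgn), lumican (Lum) and fibromodulin (Fmod), and 6 other genes linked to mesenchymal cells were followed in primary mouse keratinocytes with and without the glucose transporter Glut1. The 6 others were N-cadherin (Cdh2), the transcription factors Zeb1, Zeb2, Snai2 and Twist1, and the receptor gene Pdgfra. The 10 genes were chosen with results of these arrays known, because Vim and Bgn read higher on the Glut1-deficient arrays, and the other genes were set beside them. Their own differences between genotypes are therefore descriptions and carry no test. Of the 10 genes, 8 had a row of their own among the 30142 genes of the array, with 1 row each. Zeb2 and Pdgfra appeared only in rows that also carried the name of a microRNA gene and had no value under this choice.

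The cells were keratinocytes of C57BL/6J mice aged 1 week, either wild type or lacking Glut1 in keratinocytes, with 4 mice per genotype. The sources used here give neither the Cre driver nor the deleted part of the Glut1 gene, Slc2a1. Both genotypes were cultured in a low-calcium keratinocyte medium holding hydrocortisone, EGF, bovine pituitary extract and insulin, were reseeded at equal numbers on collagen-coated plates and were collected the day after. Each of the 4 arrays held RNA of plates from a pair of cultures of 1 genotype, pooled at random, which gave 2 arrays per genotype. A replicate number therefore ties no wild-type array to a Glut1-deficient one, and the p-values measure the spread between these pools, part of which may be technical.

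Vimentin is the main intermediate filament protein of fibroblasts and other mesenchymal cells, while keratinocytes build their filaments from keratins. Small leucine-rich proteoglycans are secreted matrix proteins with a core of leucine-rich repeats. Biglycan and decorin carry chondroitin or dermatan sulphate chains, lumican and fibromodulin carry keratan sulphate, and all of them bind collagen. Zeb, Snail and Twist factors repress epithelial genes such as E-cadherin when epithelial cells turn mesenchymal, and vimentin and N-cadherin are customary markers of that state.

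Values are log2 signals, given for replicate 1 and then replicate 2 of a genotype, so a difference of 1 is a factor of 2 on the scale of the deposited signal. A floor was set on each array at the 95th percentile of 23 background control rows, between 4.36 and 4.87, and a gene at or below it was not measured above background. Pearson correlations over the 30604 rows with 1 gene symbol were 0.998 for the pair of wild-type arrays, 0.997 for the Glut1-deficient pair and 0.989 to 0.992 across genotypes. Slc2a1 fell by 1.28 (SE 0.10, n = 2 per group, limma adjusted p = 0.00754), a call that did not hold when Glut1-deficient replicate 1 was left out (0.0508) or when every row of the table was tested (0.0648). Whether the probes of its row lie in the deleted part is not known. Of 13 keratinocyte markers, 12 lay above the floor on every array. Krt5, a keratin of basal keratinocytes, read 18.61 and 18.69 in wild-type cells, against 18.30 and 17.98 in Glut1-deficient cells, which did not pass (limma adjusted p = 0.0994). After quantile normalization Krt5 passed, with a difference of -0.61 (0.0354), as did Krt14, its partner keratin, with -0.70 (0.0403), against -0.43 without that step (0.122).

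Vim read 8.38 and 8.04 in wild-type cells, against 10.25 and 11.92 in Glut1-deficient cells. Both Glut1-deficient values lay above both wild-type values, and the Glut1-deficient values lay farther from each other than the wild-type values did. The group means were 8.21 ± 0.24 and 11.09 ± 1.18 (SD, n = 2 each). The difference was 2.88 (moderated SE 0.54), a fold of 7.35. Leaving out Glut1-deficient replicate 2 gave 2.04, and leaving out Glut1-deficient replicate 1 gave 3.71.

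Bgn read 8.73 and 8.41 in wild-type cells, against 11.13 and 12.52 in Glut1-deficient cells. The order of the 4 arrays was the same as for Vim, with Glut1-deficient replicate 2 highest and wild-type replicate 2 lowest. The group means were 8.57 ± 0.23 and 11.82 ± 0.99 (SD, n = 2 each), and the difference was 3.25 (SE 0.45), a fold of 9.52. With Glut1-deficient replicate 2 left out it was 2.55, and with replicate 1 of that genotype left out it was 3.95. In RNA of whole cultures, more cells that hold a transcript and more of that transcript per cell cannot be told apart.

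The promoters of both genes are shown because these are the members whose signal differed most. The windows are the 250 bases before the annotated start in RefSeq (GRCm38.p6, forward strand, 5′ to 3′). Capitals mark matches on either strand. The core promoter element TATAAA was searched first. The element CCAAT, to which the trimeric factor NF-Y binds, was searched next, and the third was GGGCGG, the GC box of Sp factors. The Vim window lies at chr2:13574061-13574310 and the Bgn window at chrX:73483351-73483600.
Vim: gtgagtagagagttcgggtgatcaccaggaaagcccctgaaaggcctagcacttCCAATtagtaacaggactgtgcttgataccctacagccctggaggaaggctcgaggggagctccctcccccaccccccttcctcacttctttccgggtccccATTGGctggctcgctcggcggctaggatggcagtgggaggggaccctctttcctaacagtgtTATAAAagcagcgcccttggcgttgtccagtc
Bgn: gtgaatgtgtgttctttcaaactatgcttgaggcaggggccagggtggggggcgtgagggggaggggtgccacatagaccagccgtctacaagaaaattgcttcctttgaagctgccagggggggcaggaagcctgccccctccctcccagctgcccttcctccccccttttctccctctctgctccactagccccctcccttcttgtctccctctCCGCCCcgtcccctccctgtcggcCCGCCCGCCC
The Vim window held the TATA element 32 to 27 bases before the start, and the CCAAT element once on each strand. The Bgn window held neither, and held the GC box 3 times on the reverse strand, of which the 2 nearest the start overlapped. Among 32851 windows of this length, the TATA element occurred in 12.4%, the CCAAT element in 33.8% and the GC box in 32.7%, counting both strands. GC content was 58.4% for Vim and 64.4% for Bgn, against a median of 52.4%. CACCTG, the E-box that Zeb and Snail factors bind, occurred in 17.2% of all windows and in none of the 9 windows of the 6 members found in the table (0 of Vim, Bgn, Fmod, Twist1, Zeb2 and Pdgfra). The Vim and Bgn windows also held no TGANTCA, the AP-1 site, which 6.75% of windows held. The general E-box CAGNTG, not marked in capitals, occurred in 44.8% of all windows. It lay in the Bgn window 102 to 97 bases before the start and in those of Fmod and Pdgfra, and not in those of Vim, Twist1 and Zeb2. These matches are letters in a window and were not measured as binding sites.

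Lumican and fibromodulin gave no signal above background in either genotype. Lum read 3.61 and 3.64 in wild-type cells, against 3.87 and 3.80 in Glut1-deficient cells. Fmod read 3.09 and 3.03 in wild-type cells, against 3.13 and 3.07 in Glut1-deficient cells. All 8 values lay below the floor of their array, so the order of the arrays has no meaning for these genes and no fold is given. Biglycan was thus the 1 of these 3 proteoglycans measured above background.

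Cdh2, the cadherin of mesenchymal and neural cells, read 7.32 and 7.92 in wild-type cells, against 7.66 and 8.67 in Glut1-deficient cells. The groups overlapped, and the difference of 0.55 (SE 0.38) rested on Glut1-deficient replicate 2, since it was 0.04 without that array and 1.05 without Glut1-deficient replicate 1.

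Among the transcription factors, Snai2, the Snail family member that basal keratinocytes also use, was measured well above the floor in both genotypes. Snai2 read 14.86 and 14.47 in wild-type cells, against 14.47 and 14.64 in Glut1-deficient cells. The groups overlapped, and the difference of -0.11 (SE 0.16) changed sign when single arrays were left out (-0.31 to 0.08). Twist1, a basic helix-loop-helix factor of mesoderm and neural crest, read 4.16 and 4.25 in wild-type cells, against 4.17 and 4.36 in Glut1-deficient cells, all below the floor. Zeb1, a zinc-finger repressor of E-cadherin, read 4.44 and 4.33 in wild-type cells, against 4.40 and 4.70 in Glut1-deficient cells. Its value passed the floor on 1 array of each genotype, and the groups overlapped, with a difference of 0.16 (SE 0.13).

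**Figure D1:**
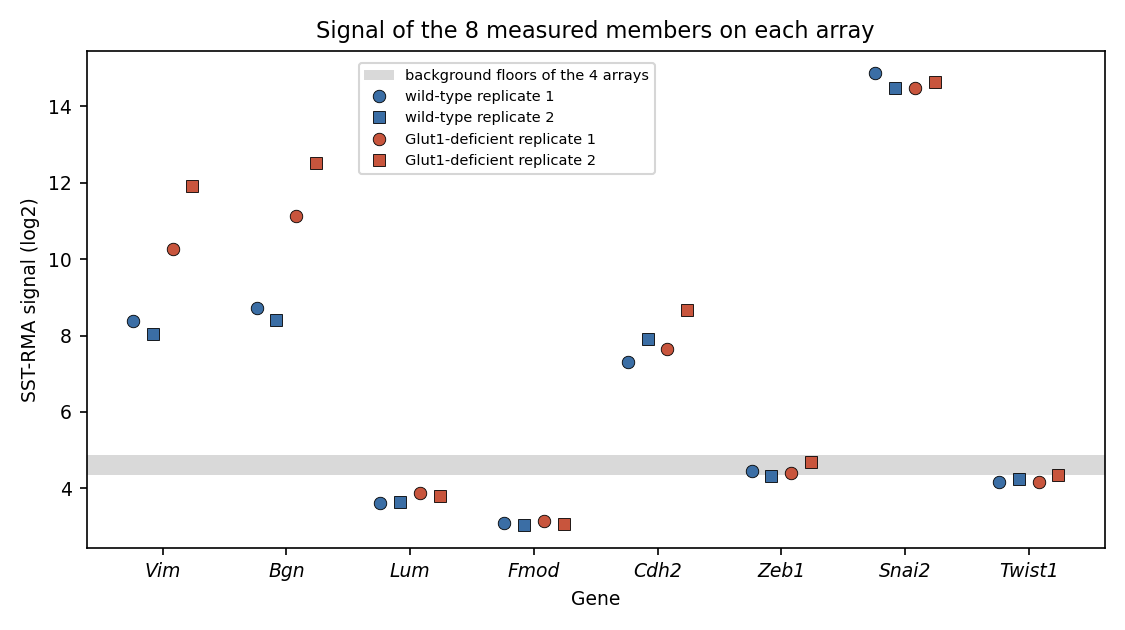
Log2 signal of the 8 measured members on each array, with wild-type arrays in blue, Glut1-deficient arrays in red and the range of the background floors (4.36 to 4.87) as a grey band. Both red points lie above both blue points for Vim and Bgn, the groups overlap for Cdh2, Zeb1, Snai2 and Twist1, and Lum, Fmod and Twist1 lie below the floor of each array. Levels of different genes are not comparable, since each row has its own probes.

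Counted over the 8 measured members, 4 lay above the floor on all arrays (Vim, Bgn, Cdh2 and Snai2), 3 on none (Lum, Fmod and Twist1) and Zeb1 on some. Vim and Bgn had an adjusted p under 0.05 in the direction they were chosen for, which makes 2 members higher and 0 lower. In the whole comparison 4.11% of rows were called higher and 3.11% lower, 7.22% in all. Groups did not overlap, with Glut1-deficient arrays higher, for 3 members (Vim, Bgn and Lum) and for 23.8% of all rows, or 49.7% of rows in either direction. Since the members were chosen on this contrast, these counts show nothing beyond the choice itself. The median difference over all rows was -0.01.

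Zeb1 and Zeb2 are classical targets of the miR-200 family, which keeps epithelial cells from expressing them. Mature members of the family are printed from RefSeq (GRCm38.p6) to show the 2 seeds through which they pair with their targets. Another member, miR-429, is not printed, and its gene Mir429 had no row of its own among those tested. Capitals mark the seed, bases 2 to 8.
mmu-miR-200b-3p: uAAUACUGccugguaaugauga
mmu-miR-200c-3p: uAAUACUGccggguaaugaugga
mmu-miR-200a-3p: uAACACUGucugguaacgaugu
mmu-miR-141-3p: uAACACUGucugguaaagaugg
The first pair shares the seed AAUACUG and the second pair the seed AACACUG. The rows of the array measure the hairpin genes and not these mature arms. Mir200b read 6.15 and 5.76 in wild-type cells, against 6.43 and 6.16 in Glut1-deficient cells. Mir200c read 5.06 and 4.57, against 4.97 and 4.92. Mir200a read 4.62 and 4.85, against 5.11 and 4.74, and Mir141 read 4.92 and 5.25, against 5.07 and 5.13. For Mir200c, Mir200a and Mir141 the genotypes overlapped. For Mir200b the Glut1-deficient arrays were the higher ones, by less between the nearest arrays of the genotypes than within either genotype.

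A feature of Vim and Bgn was the distance between the Glut1-deficient arrays. Glut1-deficient replicate 2 read above replicate 1 by 1.67 for Vim and by 1.39 for Bgn, while the wild-type arrays lay 0.34 and 0.32 apart. Over the 14006 genes above the floor on every array, the median distance was 0.15 between the Glut1-deficient arrays and 0.11 between the wild-type arrays. A distance at least as large as that of Vim occurred for 11 genes (0.0785%), Vim included, of which 9 read higher on replicate 2. One at least as large as that of Bgn occurred for 36 genes (0.257%), of which 29 read higher on replicate 2. Across all genes above the floor, 45.6% read higher on replicate 2 than on replicate 1.

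Profiles over the 4 arrays were compared after each gene's own mean was subtracted, by Euclidean distance in log2 units. Nearest to Vim were Dkk2, a secreted modulator of Wnt signalling (distance 0.37), Bgn (0.42) and Ccer2, a gene named for a coiled-coil glutamate-rich protein (0.46). Nearest to Bgn were Crabp1, a cytosolic retinoic acid-binding protein (0.28), Vim (0.42) and Dkk2 (0.51). Dkk2 read 5.14 and 4.73 in wild-type cells, against 7.12 and 8.29 in Glut1-deficient cells. Ccer2 read 8.66 and 8.20, against 10.53 and 11.65. Crabp1 read 10.72 and 10.20, against 13.27 and 14.33. Each of these 3 genes, like Vim and Bgn, was highest on Glut1-deficient replicate 2 and lowest on wild-type replicate 2. The likeness rests on 4 arrays and follows largely from the choice of the nearest profiles, so it is a description.

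Markers of dermal fibroblasts were read beside Vim and Bgn, because fibroblasts in a skin culture make both. Of 25 markers measured, 5 were higher with limma adjusted p under 0.05, 2 were lower and 18 did not pass, with a median difference of 0.22. The share called was 28.0%, against 7.22% of all rows. Crabp1 rose by 3.34 (SE 0.38, adjusted p = 0.0152) and Lox, the lysyl oxidase that crosslinks collagen, rose by 1.90 (SE 0.16, adjusted p = 0.0078). Both calls held without any single array and were lost when every row of the table was tested (0.0885 for Crabp1 and 0.0648 for Lox). Dcn is described with the proteoglycans below. Fstl1, a secreted glycoprotein, rose by 1.67 (adjusted p = 0.0292), which was lost without wild-type replicate 1 (0.0708), wild-type replicate 2 (0.0917) or replicate 2 of the Glut1-deficient arrays (0.0533). Col6a1, a chain of collagen VI, rose by 0.59 (adjusted p = 0.0433), which was lost without any of the 4 arrays (0.0883 to 0.191) and with median centring (0.0546). Its value on wild-type replicate 2 lay below the floor. Lrig1 fell by 0.99 (adjusted p = 0.0161) and Fbln1, the matrix glycoprotein fibulin, fell by 0.81 (adjusted p = 0.0293). The fall of Lrig1 was lost without either wild-type array (0.0641 and 0.0780) or Glut1-deficient replicate 1 (0.0671), as was that of Fbln1 (0.116, 0.118 and 0.0890). Fstl1, Col6a1 and Fbln1 were named after their values were seen.

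Several collagens that define fibroblasts were not measured above background. Col3a1, Col5a1, Col6a2, Col6a3, Fap, Dpp4, Mfap4, Mfap5, Sfrp2 and Pi16, 10 of the 25 markers, were at or below the floor on all arrays. Col1a1, a chain of collagen I, read 4.87 and 4.93 in wild-type cells, against 5.11 and 5.14 in Glut1-deficient cells (limma adjusted p = 0.256). The summed signal of the 25 markers, on the log2 scale, was 12.46 and 12.15 in wild-type cells, against 13.57 and 14.53 in Glut1-deficient cells. Without Crabp1, a sum chosen after the values were seen, it was 11.95 and 11.71 in wild-type cells, against 11.16 and 11.58 in Glut1-deficient cells. Such sums weigh the rows of highest signal most. The brightest row left without Crabp1 was that of Lrig1, at 11.17 and 11.11 in wild-type cells, against 10.04 and 10.26 in Glut1-deficient cells. Neither sum therefore stands for the list as a whole. Its median difference of 0.22 was that of Col1a1 and counts the 10 markers at or below the floor, which have no measured difference. The median does not stand for the list either. At an unadjusted p under 0.05 by limma, 9 of the 25 markers were higher and 2 were lower. Glut1-deficient replicate 2 read above replicate 1 for all 9 of the 9 markers above the floor on every array. The part of fibroblasts in the signal of Vim and Bgn was not tested, nor was which cells of the culture gave the Lrig1 signal.

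**Figure D2:**
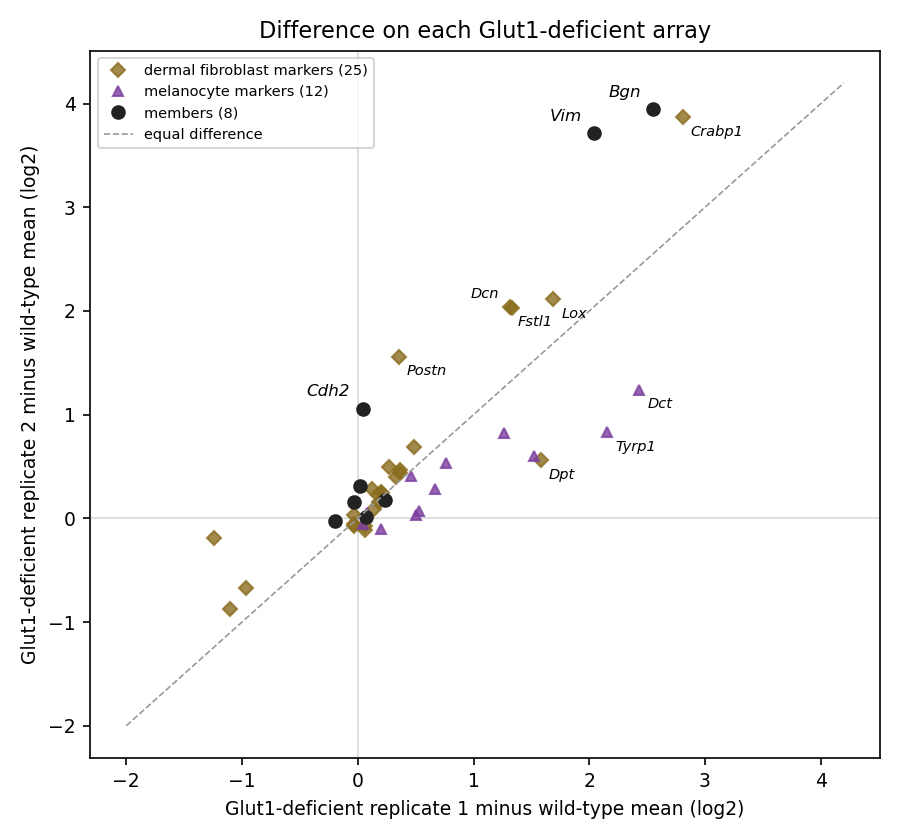
Difference from the wild-type mean on each Glut1-deficient array (log2), replicate 1 on the horizontal and replicate 2 on the vertical axis, for the 8 members (black), 25 dermal fibroblast markers (brown diamonds) and 12 melanocyte markers (purple triangles), with a dashed line where both are equal. Vim, Bgn, Crabp1, Fstl1, Dcn and Lox lie above the line, and the melanocyte markers lie on or below it; points near 0 include genes at background, for which the order of the arrays has no meaning.

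Markers of other cell types of skin were read in the same way. Of 12 melanocyte markers 2 were higher (Pmel by 1.04, limma adjusted p = 0.0341, and Ednrb at least 1.38-fold, adjusted p = 0.0372) and 0 lower, with a median difference of 0.46. The share called was 16.7%, against 7.22% of all rows. At an unadjusted p under 0.05 by limma, 7 of the 12 were higher, against 9 of the 25 fibroblast markers. Pmel was lost without either wild-type array (0.0903 and 0.122) or Glut1-deficient replicate 1 (0.0962), and Ednrb without any of the 4 arrays (0.0533 to 0.161). Dct and Tyrp1, enzymes of pigment synthesis, differed by 1.84 (SE 0.41, adjusted p = 0.0670) and 1.49 (SE 0.46, adjusted p = 0.136) and passed without Glut1-deficient replicate 2 (0.0378 and 0.0477). Of the 5 melanocyte markers above the floor on every array 0 read higher on Glut1-deficient replicate 2 than on replicate 1, unlike Vim and Bgn. Their summed log2 signal was 10.64 and 10.18 in wild-type cells, against 12.41 and 11.21 in Glut1-deficient cells. Of 13 endothelial and pericyte markers, Kdr, a receptor for VEGF, rose by 3.60 (SE 0.23, adjusted p = 0.0051) and 0 fell, with 10 at or below the floor on all arrays. The Kdr call held without any single array and was lost when every row of the table was tested (0.0516). Of 14 Langerhans cell, macrophage and leukocyte markers, Cd68, a lysosomal glycoprotein, rose by 1.95 (adjusted p = 0.0267) and 0 fell, with 12 at or below the floor on all arrays. The Cd68 call was lost without either wild-type array (0.0756 and 0.0913). By limma, 0 of 7 Schwann cell markers were called, with 0 higher and 1 lower at an unadjusted p under 0.05. The smooth muscle and myofibroblast markers also had 0 calls of 8, with 0 higher and 1 lower at an unadjusted p under 0.05. Over all rows 7.22% were called, so 0 calls in lists this short are near that share. Tagln, of the smooth muscle list, read 8.45 and 7.64 in wild-type cells, against 6.76 and 8.23 in Glut1-deficient cells. Its Glut1-deficient arrays lay 1.47 apart, with replicate 2 higher, but its difference was -0.55 (limma adjusted p = 0.661). The part of these cell types in the members' signal was not tested either.

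Other intermediate filament genes were read beside vimentin. Of 17 outside the keratins 0 were higher by limma (0 also at an unadjusted p under 0.05), against 4.11% of all rows. In a list of this size 0 is near that share and shows nothing about the family. Lower were 2 genes, against 3.11% of all rows, and the median difference was -0.07. Both were nuclear lamins. Lmnb1 fell by 1.24 (SE 0.12, adjusted p = 0.0098), which was lost without Glut1-deficient replicate 1 (0.0557). Lmnb2 fell by 0.60 (SE 0.10, adjusted p = 0.0308), which was lost without any of the 4 arrays (0.0871 to 0.164). Of the 17 genes, 9 were at or below the floor on all arrays. Among 8 linkers that anchor intermediate filaments to junctions or other filaments, 0 passed, against 7.22% of all rows. Of these linkers 2 were higher and 1 was lower at an unadjusted p under 0.05 by limma. Those with the smallest p were Dst, with a difference of 0.63 (adjusted p = 0.0602), and Ppl, the cornified envelope protein periplakin, with 0.63 (adjusted p = 0.0815).

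Of 14 other small leucine-rich proteoglycans 12 were at or below the floor on all arrays and 0 above it on all, so most of this family had no measured level. Dcn, which encodes decorin, the closest relative of biglycan, read 4.08 and 3.82 in wild-type cells, against 5.28 and 5.97 in Glut1-deficient cells. Both wild-type values lay below the floor and both Glut1-deficient values above it. It was at least 2.14-fold higher in Glut1-deficient cells. The limma fit, which used the deposited values below the floor, gave an adjusted p of 0.0250, the 1 call in the list. The call was lost without wild-type replicate 1 (0.0697) or wild-type replicate 2 (0.0834). Lum lies beside Dcn in the RefSeq gene order, with Kera and Epyc, both of the same family, next on its other side. Lum, Kera and Epyc stayed at or below the floor on all arrays. The median difference over the list was 0.00. The share called was 7.14%, against 7.22% of all rows.

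Biglycan's chains are built by a shared set of enzymes. Of 27 enzymes that build chondroitin, dermatan or keratan sulphate 0 were higher and 1 was lower by limma, with a median difference of -0.03. The share called was 3.7%, against 7.22% of all rows. At an unadjusted p under 0.05, 3 were higher and 5 lower. Dse, the epimerase that turns chondroitin into dermatan sulphate, fell by 0.73 (SE 0.11, limma adjusted p = 0.0262). The call was lost without wild-type replicate 1 (0.127), wild-type replicate 2 (0.104) or replicate 1 of the Glut1-deficient arrays (0.0965).

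Several genes that cleave biglycan, bind it or act downstream of it changed, most of them downwards. Of 19 receptors, cleaving proteases and downstream genes 2 were higher and 6 were lower by limma, 42.1% against 7.22% of all rows, with a median difference of -0.19. This list was chosen with earlier results of these data known, so its share of calls is a description. Of its genes 11 lay above the floor on every array, against 14006 of the 30142 genes of the series, which makes the 2 shares unlike. Tll1, a tolloid protease that trims the propeptide of biglycan, read 10.81 and 10.82 in wild-type cells, against 8.25 and 8.75 in Glut1-deficient cells. It fell by 2.32 (SE 0.18, adjusted p = 0.0067). Bmp1, of the same protease family, fell by 1.13 (SE 0.10, adjusted p = 0.0096), which was lost without wild-type replicate 1 (0.0516) or replicate 1 of the Glut1-deficient arrays (0.0588). Mmp14, a membrane-bound metalloproteinase, fell by 1.85 (SE 0.15, adjusted p = 0.0076). The falls of Tll1 and Mmp14 held without any single array.

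Mmp13, a collagenase, rose by 1.86 (adjusted p = 0.0274), which was lost without wild-type replicate 2 (0.0744) or either Glut1-deficient array (0.0659 and 0.0717). Soluble biglycan is known as a ligand of Toll-like receptors, with Cd14 and Cd44 as coreceptors. Cd14 fell by 1.38 (SE 0.12, adjusted p = 0.0088), which was lost without Glut1-deficient replicate 1 (0.0606). Cd44 fell by 0.54 (adjusted p = 0.0341), which was lost without any of the 4 arrays (0.0892 to 0.170) and with trended and robust moderation (0.0510). Tnf, a cytokine downstream of these receptors, fell by 2.15 (SE 0.25, adjusted p = 0.0163), which was lost without wild-type replicate 1 (0.0590). P2rx4, an ATP-gated channel, rose by 1.26 (SE 0.10, adjusted p = 0.0075), which was lost without Glut1-deficient replicate 1 (0.0518). Mmp13 and Cd44 were named after their values were seen. Whether these genes differed because of biglycan was not tested.

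Among 25 proteoglycans outside the family 2 were higher and 1 was lower, with a median difference of 0.00. The share called was 12.0%, against 7.22% of all rows. Ptprz1, a receptor-type phosphatase that carries chondroitin sulphate, read 6.16 and 6.14 in wild-type cells, against 9.49 and 9.18 in Glut1-deficient cells. It rose by 3.18 (SE 0.13, limma adjusted p = 0.0022) and, unlike Bgn, was higher on Glut1-deficient replicate 1 than on replicate 2. Tgfbr3, the coreceptor betaglycan, rose by 1.24 (adjusted p = 0.0109), which was lost without wild-type replicate 1 (0.0537) or replicate 1 of the Glut1-deficient arrays (0.0537). Hspg2, the basement membrane proteoglycan perlecan, fell by 1.31 (adjusted p = 0.0141), which was lost without replicate 1 (0.0792) or replicate 2 (0.0508) of the Glut1-deficient arrays.

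**Figure D3:**
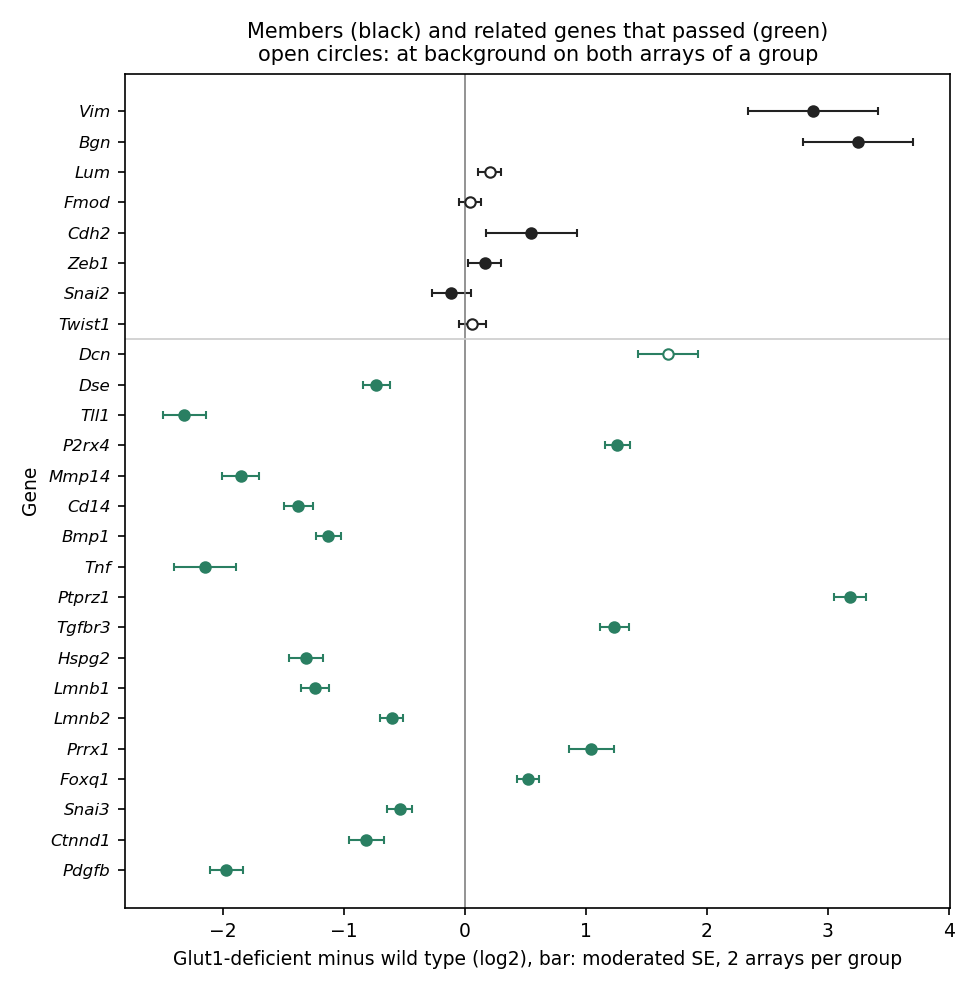
Glut1-deficient minus wild-type signal (log2) with the moderated SE as a bar (2 arrays per group), for the 8 members in black and, in green, the genes of the related lists named by rule that passed, without the epithelial guardians. Vim (2.88), Bgn (3.25) and Ptprz1 (3.18) lie farthest to the right and Tll1 (-2.32) farthest to the left; open circles stand for genes at background on both arrays of a group, whose difference is not a measured fold.

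Other transcription factors of epithelial-mesenchymal transition were read beside the members. Of 20 measured, 2 were higher and 1 was lower, with a median difference of 0.01. The share called was 15.0%, against 7.22% of all rows, and 16 of the 20 lay above the floor on every array. Prrx1, a homeobox factor of mesenchyme, read 4.62 and 4.41 in wild-type cells, against 5.32 and 5.80 in Glut1-deficient cells, a rise of 1.05 (SE 0.19, limma adjusted p = 0.0376). Its value on wild-type replicate 2 lay below the floor, so part of this difference is against background. Foxq1, a forkhead factor, rose by 0.52 (adjusted p = 0.0379), and Snai3, of the Snail family, fell by 0.54 (adjusted p = 0.0470). Leaving out any of the 4 arrays ended each of these 3 calls, with adjusted p from 0.0562 to 0.133 for Prrx1, 0.0873 to 0.186 for Foxq1 and 0.0895 to 0.230 for Snai3. Prrx1 was also lost with median centring (0.0508), and Snai3 with median centring (0.0519) or trended and robust moderation (0.0545). Snai1, the Snail factor most tied to this transition, differed by -0.01 (SE 0.10, adjusted p = 0.976). Twist2 read 4.28 and 4.51 on the wild-type arrays, below the floor, and 5.25 and 6.36 on the Glut1-deficient arrays. It was at least 2.41-fold higher but did not pass (adjusted p = 0.0913). Without Glut1-deficient replicate 1 it passed (0.0369). Snai1 and Twist2 were named after their values were seen.

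Cdh11 and Cdh6, cadherins of type II, did not pass. Cdh11, known from mesenchymal cells, read 8.04 and 7.77 in wild-type cells, against 9.36 and 10.74 in Glut1-deficient cells, a difference of 2.15 (SE 0.45, limma adjusted p = 0.0557). Without Glut1-deficient replicate 1 or replicate 2 it passed (0.0277 and 0.0399). Cdh6 read 5.72 and 5.32 in wild-type cells, against 7.001 and 8.26 in Glut1-deficient cells, a difference of 2.11 (SE 0.42) that just missed the threshold (adjusted p = 0.0500) and passed without Glut1-deficient replicate 1 (0.0366). For both, Glut1-deficient replicate 2 was the highest array, as for Vim and Bgn. Cdh1, E-cadherin, read 16.20 and 16.27 in wild-type cells, against 15.89 and 16.10 in Glut1-deficient cells, a difference of -0.24 (SE 0.11, adjusted p = 0.328). These 3 cadherins were named after their values were seen. Of 23 cadherins and catenins in the list 0 were higher (3 at an unadjusted p under 0.05) and 1 was lower. The share called was 4.35%, against 7.22% of all rows. Called lower was Ctnnd1, the catenin that holds cadherins at the membrane, which fell by 0.81 (SE 0.14, limma adjusted p = 0.0371). Its call was lost without wild-type replicate 1 (0.150), wild-type replicate 2 (0.118) or replicate 1 of the Glut1-deficient arrays (0.0978).

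**Figure D4:**
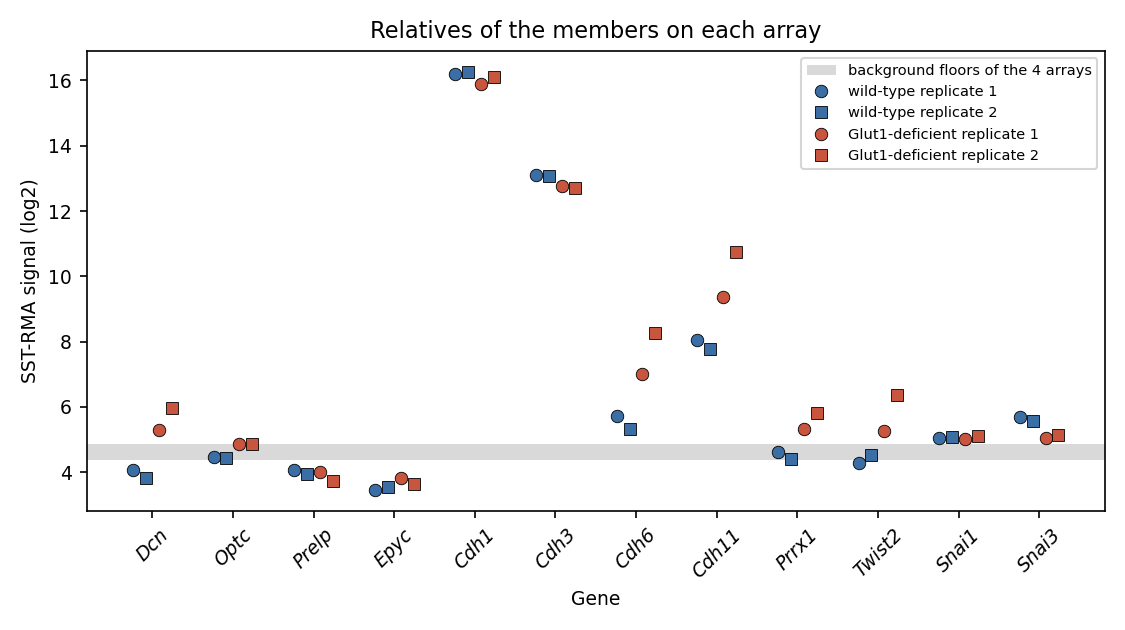
Log2 signal of 12 relatives of the members on each array, with wild-type arrays in blue, Glut1-deficient arrays in red and the range of the background floors (4.36 to 4.87) as a grey band. Dcn and Twist2 lie below the floor in wild-type cells and above it in Glut1-deficient cells, Cdh6 and Cdh11 are highest on Glut1-deficient replicate 2 without passing the test, and Cdh1 differs little between genotypes (-0.24).

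Guardians of the epithelial state were read as the counterpart of the mesenchymal factors. Of 26 measured, 2 were higher, 4 were lower and 20 did not pass by limma, with a median difference of -0.02. The share called was 23.1%, against 7.22% of all rows, and 25 of the 26 lay above the floor on every array. Krt8 and Krt18, paired keratins of simple epithelia, fell by 2.25 (SE 0.15, adjusted p = 0.0052) and by 1.48 (SE 0.10, adjusted p = 0.0052), and both calls held without any single array. Epcam, an adhesion protein of epithelia, fell by 0.84 (adjusted p = 0.0184), and Ehf, an epithelial ETS factor, fell by 0.80 (adjusted p = 0.0439). Cldn1, the tight junction protein, rose by 0.82 (adjusted p = 0.0182), and Grhl1, a grainyhead factor of epidermis, rose by 0.97 (adjusted p = 0.0239). These 4 calls were lost without any single array, with adjusted p from 0.0609 to 0.0933 for Epcam, 0.0718 to 0.166 for Ehf, 0.0553 to 0.0954 for Cldn1 and 0.0650 to 0.103 for Grhl1. Ehf was also lost with median centring (0.0546) or trended and robust moderation (0.0510). Of the 13 keratinocyte markers 1 was higher and 3 were lower, with a median difference of -0.36, namely Dsg3, a desmosomal cadherin, higher by 0.92 (adjusted p = 0.0157), and Col17a1, Lamb3 and Lama3, of the adhesion to the basement membrane, lower by limma. Their differences were -0.86, -0.80 and -0.59, and Lama3 was named after its values were seen. The share of keratinocyte markers called was 30.8%, against 7.22% of all rows. Dsg3 kept its call without Glut1-deficient replicate 2 and lost it without each other array (0.0531 to 0.0811). The other 3 calls were lost without any single array, with adjusted p from 0.0567 to 0.0883 for Col17a1, 0.0581 to 0.0975 for Lamb3 and 0.0786 to 0.169 for Lama3.

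Around Pdgfra, whose own row could not be used, 5 of 6 PDGF ligands and receptors did not pass. The share called was 16.7%, against 7.22% of all rows. Pdgfb, which encodes the PDGF B chain, read 13.21 and 13.01 in wild-type cells, against 11.02 and 11.26 in Glut1-deficient cells. It fell by 1.97 (SE 0.13, limma adjusted p = 0.0052), and the call held without any single array. Pdgfrb, the other receptor, which is typical of mesenchymal cells, read 4.67 and 4.71 in wild-type cells, against 5.06 and 5.16 in Glut1-deficient cells and did not pass (adjusted p = 0.0706).

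Over all 10 related lists, 183 of 197 genes were measured, of which 9 were higher and 17 lower by limma, 14.2% against 7.22% of all rows. The lists were chosen with earlier results of these data known, so this share is a description too. When every row of the table was tested, control rows included, 1 was higher and 0 were lower. Ptprz1 was the gene that stayed. Of the called genes named here, markers and Slc2a1 included, Ptprz1 alone kept its call in that setting.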

How the data were processed

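RNA of 4 pools of cells was hybridised to MTA-1_0 arrays of Affymetrix, 1 colour each, whose small number limits precision. The authors deposited log2 signals, 1 row per transcript cluster; the submitters' processing notes name Expression Console and RMA without versions, and per the labels the signals are SST-RMA gene signals. SST-RMA also transforms the signal, and how far this moves a fold was not tested. Symbols came from the platform table, updated through RefSeq GRCm38.p6. All 30604 rows with 1 symbol were fitted with limma 3.58.1 (R 4.3.3, two-sided, no block), with Benjamini-Hochberg adjusted p under 0.05 called. The brightest row stood for a gene. Bounds ("at least") were taken against the floor, while the p-values beside them come from the limma fit of the deposited signals without a floor. The members and lists were chosen with earlier results of these data known. Named were the members, Slc2a1, up to 6 called genes per related list (or the 2 of smallest p), called and bright markers, and the 3 nearest profiles of Vim and Bgn. Not all bright markers are printed. On simulated data for 2 arrays against 2 over 30604 rows, 64.2% of 2-fold, 89.5% of 4-fold and 98.5% of 8-fold changes were recovered. Only a small share of the simulated rows was changed, and both groups had equal spread. The real data held more calls, and Vim and Bgn spread more between the Glut1-deficient arrays, so these rates need not hold there. Alternatives covered normalization, centring, rows tested, a filter on dim rows, moderation, a replicate block, the row per gene and each array left out.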

Additional observations from a re-analysis of the deposited data

Results flagged for a closer look

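The values of Zeb2 and Pdgfra lay outside the comparison, because each gene shares its only row with a microRNA gene, and signal above the background floor was found in both rows on all 4 arrays. The row of Zeb2 and Mir5129 read 4.96 and 4.82 in wild-type cells, against 5.10 and 5.35 in Glut1-deficient cells, a difference of 0.34. The row of Pdgfra and Mir7025 read 5.44 and 5.50 in wild-type cells, against 6.82 and 7.86 in Glut1-deficient cells, a difference of 1.87, with replicate 2 of the Glut1-deficient arrays highest as for Vim and Bgn. Which of the named genes gave the signal in each row cannot be told apart, and neither difference was tested.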

How the results depend on the processing

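Leaving out single arrays moved the differences between 2.04 and 3.71 for Vim and between 2.55 and 3.95 for Bgn. Their direction could not reverse there, since both Glut1-deficient values lay above both wild-type values. The rows tested, the filter on dim rows, the moderation and the replicate block leave a difference as it is. The kept direction is therefore no check of these genes, which were chosen as raised. The filter on dim rows left no value for Lum, Fmod, Zeb1 and Twist1, and the mean over all rows of a gene changed nothing, since each member has 1 row. Over all genes, 1257 higher and 952 lower calls became 54 and 20 with every row tested, and 210 to 729 and 104 to 485 with 1 array left out. Among related genes, 9 higher and 17 lower became 1 and 0 with every row tested and 3 to 6 and 6 to 12 with 1 array left out, and the higher ones became 16 with dim rows removed. Fewer arrays or more rows tested are part of those alternatives. Replicate numbers tie no animals, and same-numbered arrays deviated with a correlation of -0.23. With the replicate number as a block, 1092 rows with 1 gene symbol were higher and 757 lower, and among related genes 11 and 13. That block also ended the calls of Lmnb2, Foxq1, Snai3, Ehf, Cd44, Col6a1, Ednrb and Lama3 and made Dct, Tyrp1, Twist2, Cdh11 and Cdh6 pass (adjusted p = 0.00729, 0.0150, 0.0229, 0.0269 and 0.0287). With dim rows removed, Cdh6, Cdh11, Dst and Dct passed (0.0310, 0.0341, 0.0383 and 0.0411). Genes below the floor, Lum, Fmod and Twist1 among the members, have no measured difference.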
